A study of Mus musculus with 18 samples.

Results

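A set of 8 genes that build or carry out the inflammasome and pyroptosis programme was followed in mouse macrophages: the sensors Nlrp3, Aim2 and Nlrc4, the adaptor Pycard, the caspases Casp1 and Casp4, the pore gene Gsdmd and the membrane rupture gene Ninj1. They were chosen by name, and 8 of 8 were found among the 56953 gene IDs of the count table and passed the filter on low counts that left 13068 genes. The cells were bone marrow-derived macrophages, grown for 7 days with 30% L929 cell supernatant, a source of macrophage growth factor, and 20% fetal bovine serum. They came from knock-in mice whose kinase RIPK1 carries the T169A substitution, alanine in place of threonine (T169A), and from C57BL/6J mice (B6). Cells of each genotype received LPS, a ligand of the receptor TLR4, together with 5z7 for 2 hours, LPS without 5z7 for 2 hours, or no stimulus. The labels do not spell out 5z7, which is commonly short for the TAK1 kinase inhibitor (5Z)-7-oxozeaenol. Each of the 6 groups held 3 libraries, named here by their running number. No group received 5z7 without LPS, so an effect of 5z7 is read here only on top of LPS. The titles give 1 library of each treatment the same letter, D to F in T169A and A to C in B6, without saying what a letter stands for. The labels leave unsaid whether replicates are separate mice or dishes, so each p-value reflects only how far these libraries scatter.

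Inflammasomes are protein assemblies that form in the cytosol when a sensor meets a microbial or danger signal. The adaptor ASC, encoded by Pycard, links the sensor to caspase-1, which cleaves pro-IL-1β, pro-IL-18 and gasdermin D. Cleaved gasdermin D forms pores in the plasma membrane, and NINJ1 then drives the rupture of the dying cell. In mouse cells the product of Casp4, long called caspase-11, binds cytosolic LPS and cleaves gasdermin D without a sensor. In macrophages LPS is the classical priming signal, which raises the amount of NLRP3 and pro-IL-1β before a later signal triggers assembly. The libraries measure messenger RNA only, so assembly, cleavage and cell death were not measured.

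The promoter letters of Nlrp3 and Casp4 are shown because these are the 2 members with the highest LPS effects and they parted when 5z7 was added. Sequences are the 250 bases before the annotated start, taken from RefSeq on build GRCm38.p6, which had windows for 7 of the 8 members (9 windows); Gsdmd had none. Each window was searched on both strands for GGGNNTTTCC (NF-kB-type letters), GAAANNGAAA (interferon response-type letters) and TGANTCA (AP-1-type letters). Capitals mark a match to GGGNNTTTCC on either strand. The Casp4 window is chr9:5308599-5308848, and the windows of the 2 annotated Nlrp3 starts are chr11:59541319-59541568 and chr11:59542436-59542685, all on the + strand.
Casp4: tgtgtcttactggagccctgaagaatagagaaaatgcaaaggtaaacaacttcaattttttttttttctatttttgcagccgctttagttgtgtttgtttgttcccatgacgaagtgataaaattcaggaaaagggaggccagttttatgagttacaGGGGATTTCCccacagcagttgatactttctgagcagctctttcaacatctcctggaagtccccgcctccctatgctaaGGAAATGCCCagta
Nlrp3, start 1: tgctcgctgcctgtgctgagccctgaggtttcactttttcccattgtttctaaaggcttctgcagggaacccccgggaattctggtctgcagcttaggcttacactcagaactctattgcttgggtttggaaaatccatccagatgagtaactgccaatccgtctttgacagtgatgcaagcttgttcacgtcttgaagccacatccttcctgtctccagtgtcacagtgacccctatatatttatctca
Nlrp3, start 2: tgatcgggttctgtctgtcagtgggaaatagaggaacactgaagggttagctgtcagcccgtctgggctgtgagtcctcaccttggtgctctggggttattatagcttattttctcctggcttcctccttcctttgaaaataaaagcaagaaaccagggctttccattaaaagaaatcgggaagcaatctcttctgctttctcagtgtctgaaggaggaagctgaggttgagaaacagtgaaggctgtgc
The Casp4 window held GGGGATTTCC beginning 93 bases before the start and GGAAATGCCC, a match on the opposite strand, beginning 14 bases before it. The window of the other Casp4 start, which overlaps this one, held the same 2 matches. No other member window held letters of the 3 kinds. Of 32851 windows in the table, 1.41% held GGGNNTTTCC, 2.98% held GAAANNGAAA and 6.75% held TGANTCA. A match describes letters and does not show binding, and the lack of one says only that these letters are not in these windows.

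Libraries held 14.6 to 30.4 M counts, and replicate pairs scattered 2.89 to 101 times as much as Poisson counting would give (chi-square per degree of freedom). Levels are given as CPM, the count relative to the library total scaled with TMM, whose factors ran from 0.83 to 1.28. The 8 macrophage markers summed to 31500 to 41700 CPM, against 21.2 to 70.1 CPM for 8 neutrophil markers and at most 12.2 CPM for each of the other lists of cell type markers. Most of the macrophage sum came from 1 gene, Lyz2, with group means of 26100 to 30600 CPM. Group means were 2710 to 3300 CPM for Csf1r and 1110 to 1770 CPM for Adgre1. Ripk1 itself averaged 95 ± 3.88 CPM in T169A and 89.7 ± 13.5 CPM in B6 unstimulated libraries (SD, n = 3), which does not test an amino acid change. B6 unstimulated library 7, the shallowest of the 18, stood apart from its group, with a mean correlation of 0.9745 with its group. In bulk RNA, fewer cells of a type and less RNA per cell cannot be told apart.

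LPS raised 6 of the 8 members in each genotype: Nlrp3, Casp4, Casp1, Gsdmd, Aim2 and Ninj1, of which Ninj1 was called in neither genotype, and had the opposite sign in B6, when libraries were scaled by library size alone. The sensor Nlrc4 and the adaptor Pycard were not called. A gene is called here when its adjusted p is under 0.05 (edgeR quasi-likelihood test, Benjamini-Hochberg over 13068 genes). No member was called lower by edgeR with TMM or by DESeq2, and none was lower at an unadjusted p under 0.05 with TMM. Library size alone called 5 higher and 1 lower in T169A (Nlrc4) and 5 higher and 2 lower in B6 (Nlrc4 and Pycard). Over all genes tested, 30.3% were called higher and 31.5% lower in T169A, and 29.6% were called higher and 33.5% lower in B6. The median log2 fold change of the 8 members was 1.05 in T169A and 1.01 in B6, beside −0.03 in T169A and −0.07 in B6 over all genes tested. Fold changes are relative to the TMM scaling. Scaled by library size alone, the median of all genes moved by −0.58 in T169A and by −0.59 in B6, and the split became 1934 genes higher and 8106 lower in T169A, beside 3965 and 4120 with TMM, and 1996 higher and 8484 lower in B6, beside 3868 and 4372 with TMM. The summed neutrophil markers ran from 43.5 to 70.1 CPM with LPS and from 30.4 to 42.8 CPM without stimulus in T169A, and from 43.6 to 53.4 CPM with LPS and from 21.2 to 33.1 CPM without stimulus in B6, without overlap. The mitochondrial share of counts was 1.2% to 1.38% with LPS and 1.58% to 1.67% without stimulus in T169A, and 1.13% to 1.29% with LPS and 1.21% to 1.59% without stimulus in B6. The part of either in the LPS changes was not tested.

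**Figure D1:**
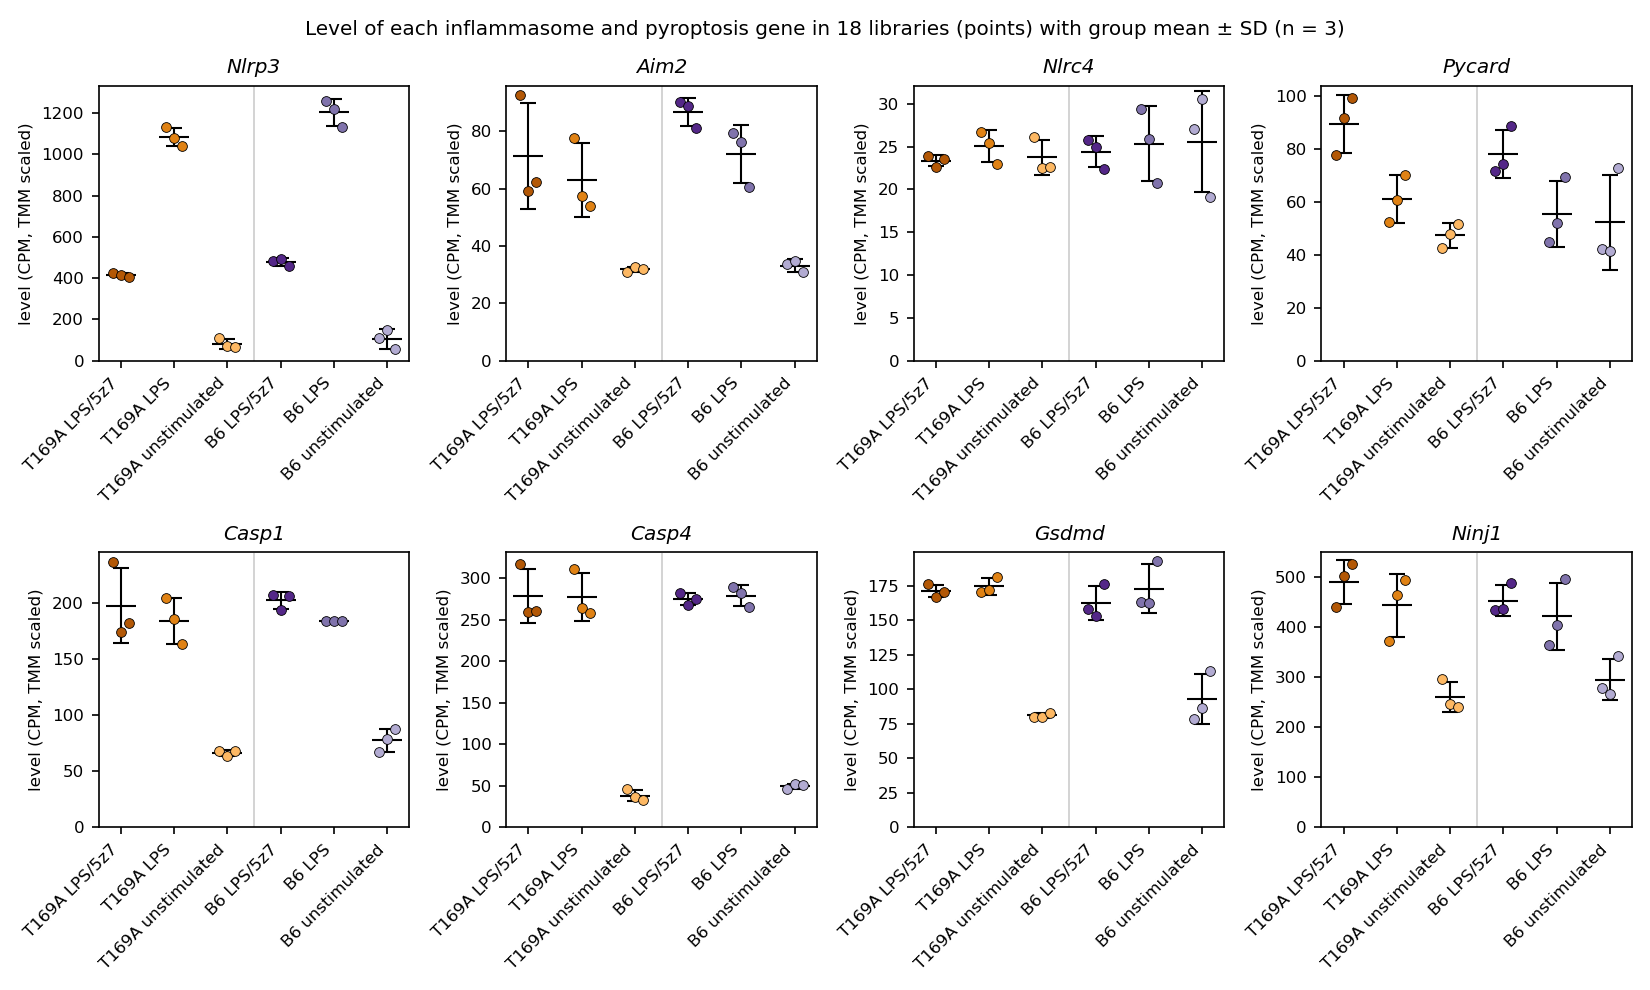
Level of each of the 8 genes (CPM, linear axis from 0) in every library, by genotype and treatment; points are libraries, long bars the mean and whiskers the SD of 3 libraries. Nlrp3 peaked at 1040 to 1260 CPM with LPS and stood between 404 and 494 CPM with LPS/5z7, while Casp4 stood at 258 to 317 CPM in both conditions.

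Nlrp3, the sensor that responds to potassium efflux and membrane damage, moved most. It reached 1130, 1080 and 1040 CPM in the T169A LPS libraries, against 111, 69.5 and 66.9 CPM in the T169A unstimulated libraries. In B6 it reached 1260, 1220 and 1130 CPM with LPS, against 108, 150 and 57.5 CPM without stimulus. LPS and unstimulated libraries did not overlap in either genotype, and the lowest unstimulated value came from library 7. The LPS effect on Nlrp3 was a log2 fold change of 3.72 ± 0.26 (SE) in T169A (adjusted p = 1.31e-09, edgeR) and 3.51 ± 0.26 in B6 (adjusted p = 2.41e-09, edgeR). Leaving out each library in turn kept it between 3.58 and 3.99 in T169A and between 3.22 and 3.86 in B6.

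Casp4, the caspase that binds LPS in the cytosol, was the next. It stood at 311, 264 and 258 CPM in T169A LPS libraries, against 45.5, 36.0 and 32.7 CPM in T169A unstimulated libraries. In B6 it stood at 290, 282 and 265 CPM with LPS, against 45.7, 51.7 and 50.5 CPM without stimulus. The groups were far apart in both genotypes, with no LPS library under 258 CPM and no unstimulated library over 51.7 CPM. The corresponding log2 fold change of Casp4 was 2.87 ± 0.12 in T169A (adjusted p = 2.42e-12, edgeR) and 2.5 ± 0.12 in B6 (adjusted p = 1.19e-11, edgeR). Casp1, whose product cleaves pro-IL-1β, pro-IL-18 and gasdermin D, had a lower fold change than Casp4. It had 204, 185 and 163 CPM in T169A LPS libraries, against 67.9, 63.2 and 67.6 CPM in T169A unstimulated ones. In B6 it had 184 CPM in each of the 3 LPS libraries, against 66.7, 78.3 and 87.1 CPM in the unstimulated ones. Its log2 fold change was 1.47 ± 0.12 in T169A (adjusted p = 8.09e-09, edgeR) and 1.25 ± 0.12 in B6 (adjusted p = 6.37e-08, edgeR). Within libraries, the median number of Casp4 counts per Casp1 count was 1.52 with LPS and 0.569 without stimulus in T169A, and 1.53 with LPS and 0.66 without stimulus in B6.

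The executioner genes rose by a smaller factor. Gsdmd, whose product forms the pore, averaged 174 ± 5.5 CPM in T169A LPS libraries and 80.9 ± 1.45 CPM in T169A unstimulated libraries (SD, n = 3 each). In B6 it averaged 173 ± 17.4 CPM with LPS and 92.7 ± 18.2 CPM without stimulus (SD, n = 3 each). Its log2 fold change was 1.11 ± 0.11 in T169A (adjusted p = 1.54e-07, edgeR) and 0.90 ± 0.11 in B6 (adjusted p = 1.96e-06, edgeR). Ninj1 had 372, 463 and 493 CPM in T169A LPS libraries, against 295, 245 and 240 CPM in T169A unstimulated libraries. The B6 values were 363, 404 and 495 CPM with LPS, against 277, 265 and 342 CPM without stimulus. The groups did not overlap, although the lowest B6 LPS library stood only a little above the highest B6 unstimulated one, library 7. The log2 fold change of Ninj1 was 0.77 ± 0.14 in T169A (adjusted p = 0.000125, edgeR) and 0.51 ± 0.14 in B6 (adjusted p = 0.0037, edgeR). With library size alone in place of TMM it was 0.19 in T169A (adjusted p = 0.234, edgeR) and −0.08 in B6 (adjusted p = 0.61, edgeR), so the direction of the change of Ninj1 in B6 depended on the scaling.

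The other 2 sensors went separate ways. Aim2, which binds cytosolic DNA, had 77.7, 57.5 and 54.0 CPM in T169A LPS libraries, against 30.8, 32.7 and 32.1 CPM in T169A unstimulated libraries. B6 libraries had 79.4, 76.1 and 60.6 CPM with LPS, against 33.9, 34.9 and 30.8 CPM without stimulus. For Aim2 the log2 fold change was 0.99 ± 0.16 in T169A (adjusted p = 4.1e-05, edgeR) and 1.12 ± 0.16 in B6 (adjusted p = 1.01e-05, edgeR). Nlrc4, which is engaged by NAIP proteins that bind flagellin or secretion system parts, ranged from 19.1 to 30.6 CPM over the B6 and from 22.5 to 26.7 CPM over the T169A libraries, with overlap between all treatments. Its LPS log2 fold change was 0.08 ± 0.15 in T169A, with a 95% interval of −0.23 to 0.39, and −0.01 ± 0.14 in B6, with an interval of −0.32 to 0.29. With library size alone it was −0.50 in T169A (adjusted p = 0.00373, edgeR) and −0.60 in B6 (adjusted p = 0.000819, edgeR), which is about the shift of the median of all genes under that scaling.

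Pycard was the member whose calls moved most with the processing. It had 52.3, 60.8 and 70.2 CPM in T169A LPS libraries, against 42.5, 48.0 and 51.8 CPM in T169A unstimulated libraries, just without overlap. In B6 it had 45, 52.1 and 69.4 CPM with LPS, against 42.4, 41.5 and 72.9 CPM without stimulus, where the value of 72.9 CPM belonged to library 7. In log2 terms the difference of Pycard was 0.36 ± 0.20 in T169A (adjusted p = 0.123, edgeR) and 0.09 ± 0.20 in B6 (adjusted p = 0.729, edgeR). Without B6 unstimulated library 7 it was 0.36 in T169A (adjusted p = 0.035, edgeR) and 0.40 in B6 (adjusted p = 0.0417, edgeR). By library size alone it was −0.22 in T169A (adjusted p = 0.339, edgeR) and −0.51 in B6 (adjusted p = 0.0314, edgeR), so the direction depended on the scaling. Within each of the 6 groups the library with the fewest counts had the highest Pycard level, a pattern seen in 2.69% of all genes tested. The same library had the lowest Nlrp3 level in 6 of 6 groups, as in 5.64% of all genes tested. It had the highest Gsdmd and Ninj1 levels in 5 of 6 groups, a looser pattern whose share over all genes was not computed. The libraries with the fewest counts were 7, 8 and 9 in B6 and 16, 17 and 18 in T169A, the last running numbers of each genotype. Depth and replicate set therefore cannot be told apart in this pattern. In B6 LPS/5z7 the depths were nearly equal, with 18063314 counts in library 9 and 18072135 in library 6. The part of depth in the levels was not tested.

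Adding 5z7 to LPS lowered 1 member, Nlrp3, in each genotype. It had 425, 413 and 404 CPM in T169A LPS/5z7 libraries, against 1130, 1080 and 1040 CPM in T169A LPS libraries. The B6 values were 482, 494 and 458 CPM with LPS/5z7, against 1260, 1220 and 1130 CPM with LPS. The groups did not overlap, and the spread within each was small beside the gap. The log2 fold change of LPS/5z7 against LPS was −1.39 ± 0.24 in T169A (adjusted p = 0.000746, edgeR) and −1.33 ± 0.24 in B6 (adjusted p = 0.00108, edgeR). Leaving out each library in turn kept it between −1.43 and −1.36 in T169A and between −1.40 and −1.32 in B6. Over all genes tested, 6.5% were called higher and 6.53% lower in T169A, and 7.03% were called higher and 6.79% lower in B6, so 1 lower member of 8 is not far from that background. Scaled by library size alone, the split of all genes became 2177 higher and 530 lower in T169A, beside 850 and 853 with TMM, and 2339 higher and 516 lower in B6, beside 919 and 887 with TMM, and the median of all genes moved by 0.16 in each.

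No member was called higher with 5z7 by edgeR with TMM or by DESeq2. At an unadjusted p under 0.05 (edgeR) Pycard was higher in each genotype. With Nlrp3, 2 of the 8 members had such a p in each genotype, beside 3226 of all 13068 genes in T169A and 3364 in B6. Pycard had 77.8, 91.6 and 99.4 CPM in T169A LPS/5z7 libraries, against 52.3, 60.8 and 70.2 CPM in T169A LPS libraries. B6 libraries had 71.7, 74.5 and 88.6 CPM with LPS/5z7, against 45, 52.1 and 69.4 CPM with LPS, and the groups did not overlap in either genotype. Pycard's log2 fold change was 0.55 ± 0.20 in T169A (adjusted p = 0.0779, edgeR) and 0.50 ± 0.20 in B6 (adjusted p = 0.11, edgeR). B6 unstimulated library 7 is in neither group compared here, but it enters the filter, the scaling and the shared spread. Without library 7 the adjusted p of Pycard from edgeR was 0.0116 in T169A and 0.0197 in B6. Pycard was also called in fits of the compared groups alone (adjusted p = 0.03 in T169A and 0.0386 in B6, edgeR) and with library size alone (adjusted p = 0.0208 in T169A and 0.0282 in B6, edgeR). With a replicate block of consecutive running numbers it was called too (adjusted p = 0.000883 in T169A and 0.00149 in B6, edgeR).

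The other 6 members were not called when 5z7 was added. Casp4 stood at 317, 259 and 261 CPM in T169A LPS/5z7 libraries, against 311, 264 and 258 CPM in T169A LPS libraries. In B6 it stood at 282, 268 and 275 CPM with LPS/5z7, against 290, 282 and 265 CPM with LPS. The values overlapped throughout, and the log2 difference was 0.01 ± 0.11 in T169A (95% interval −0.23 to 0.25) and −0.02 ± 0.11 in B6 (−0.26 to 0.22). For Casp1 the difference was 0.10 ± 0.12 in T169A (−0.14 to 0.35) and 0.14 ± 0.12 in B6 (−0.11 to 0.38). For Gsdmd it was −0.03 ± 0.11 in T169A (−0.26 to 0.21) and −0.09 ± 0.11 in B6 (−0.32 to 0.15). These intervals leave out a change of the size seen in Nlrp3. For Ninj1 the difference was 0.14 ± 0.14 in T169A (−0.15 to 0.43) and 0.10 ± 0.14 in B6 (−0.19 to 0.40). For Aim2 it was 0.18 ± 0.16 in T169A (−0.15 to 0.51) and 0.26 ± 0.16 in B6 (−0.07 to 0.60), and in B6 the LPS/5z7 libraries stood above the LPS libraries. With library size alone Aim2 was called in B6 (log2 fold change 0.43, adjusted p = 0.0469, edgeR). For Nlrc4 the difference was −0.10 ± 0.15 in T169A (−0.41 to 0.21) and −0.06 ± 0.15 in B6 (−0.37 to 0.25).

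**Figure D2:**
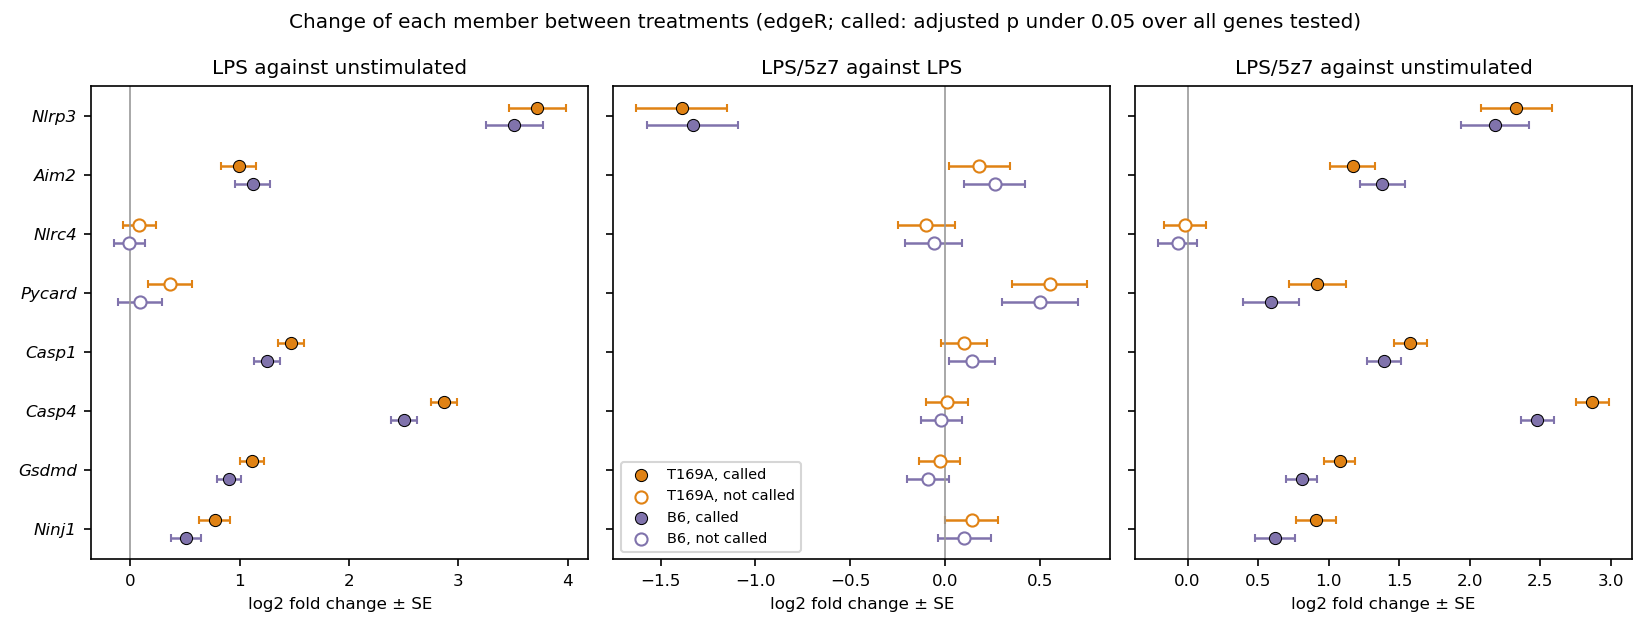
Log2 fold change ± SE of each gene for LPS against unstimulated, LPS/5z7 against LPS and LPS/5z7 against unstimulated, with T169A drawn above B6 for each gene; filled points are called and open points are not. Nlrp3 is the only member with filled points left of 0 in the middle panel, at −1.39 in T169A and −1.33 in B6.

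Against unstimulated cells, LPS/5z7 raised 7 of the 8 members in each genotype, that is all but Nlrc4. None was called lower by edgeR with TMM or by DESeq2, and none was lower at an unadjusted p under 0.05 with TMM; library size alone called Nlrc4 lower in each genotype. Over all genes tested, 28.1% were called higher and 27.5% lower in T169A, and 27.6% were called higher and 27.9% lower in B6. This comparison shares its unstimulated libraries with the LPS comparison and its LPS/5z7 libraries with the one above. By library size alone the median of all genes moved by −0.42 in T169A and by −0.43 in B6, and the split became 1975 higher and 6999 lower in T169A, beside 3678 and 3591 with TMM, and 2075 higher and 7334 lower in B6, beside 3610 and 3647 with TMM. Nlrp3 kept a log2 fold change over unstimulated cells of 2.33 ± 0.25 in T169A (adjusted p = 3.39e-07, edgeR) and 2.18 ± 0.24 in B6 (adjusted p = 7.41e-07, edgeR). Casp4 stood at 2.87 ± 0.12 in T169A and 2.48 ± 0.12 in B6, where it lay inside the 95% interval of Nlrp3, 1.66 to 2.69; the order of the 2 genes was not tested. Casp1 stood at 1.58 ± 0.12 in T169A and 1.39 ± 0.12 in B6, and Aim2 at 1.17 ± 0.16 in T169A and 1.38 ± 0.16 in B6. Gsdmd stood at 1.08 ± 0.11 in T169A and 0.81 ± 0.11 in B6, and Ninj1 at 0.91 ± 0.14 in T169A and 0.62 ± 0.14 in B6. Scaled by library size alone, the B6 value of Ninj1 was 0.19 (adjusted p = 0.24, edgeR).

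Pycard joined the called members here, with 0.92 ± 0.20 in T169A (adjusted p = 8e-04, edgeR) and 0.59 ± 0.20 in B6 (adjusted p = 0.018, edgeR). The T169A libraries did not overlap, while in B6 library 7 lay inside the range of the LPS/5z7 libraries. The B6 call was lost without B6 unstimulated library 1 (0.46, adjusted p = 0.084, edgeR) or library 4 (0.45, adjusted p = 0.0824) and without B6 LPS/5z7 library 9 (0.47, adjusted p = 0.0855). It was also lost with no filter on low counts (adjusted p = 0.0514, edgeR), in the fit of these groups alone (0.0742) and with library size alone (0.499). Nlrc4 stood at −0.02 ± 0.15 in T169A and −0.07 ± 0.14 in B6. With library size alone it was −0.44 in T169A (adjusted p = 0.00977, edgeR) and −0.50 in B6 (adjusted p = 0.00439, edgeR).

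Ratios within a library need no scaling and show the same parting of Nlrp3 from the caspases. The number of Nlrp3 counts per Casp4 count ran from 1.34 to 1.6 in T169A LPS/5z7 libraries, from 3.65 to 4.09 in T169A LPS libraries and from 1.93 to 2.43 in T169A unstimulated libraries. In B6 it ran from 1.66 to 1.84 with LPS/5z7, from 4.27 to 4.34 with LPS and from 1.14 to 2.91 without stimulus. The LPS/5z7 and LPS ranges were apart in each genotype, while the wide range of B6 unstimulated libraries held all values of B6 LPS/5z7. Casp4 counts per Casp1 count ran from 1.34 to 1.48 in T169A LPS/5z7 libraries and from 1.43 to 1.58 in T169A LPS libraries, and from 1.34 to 1.39 in B6 LPS/5z7 libraries and from 1.44 to 1.58 in B6 LPS libraries. A ratio shows unequal change and not which gene changed, and its size also depends on the lengths of the 2 genes.

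**Figure D3:**
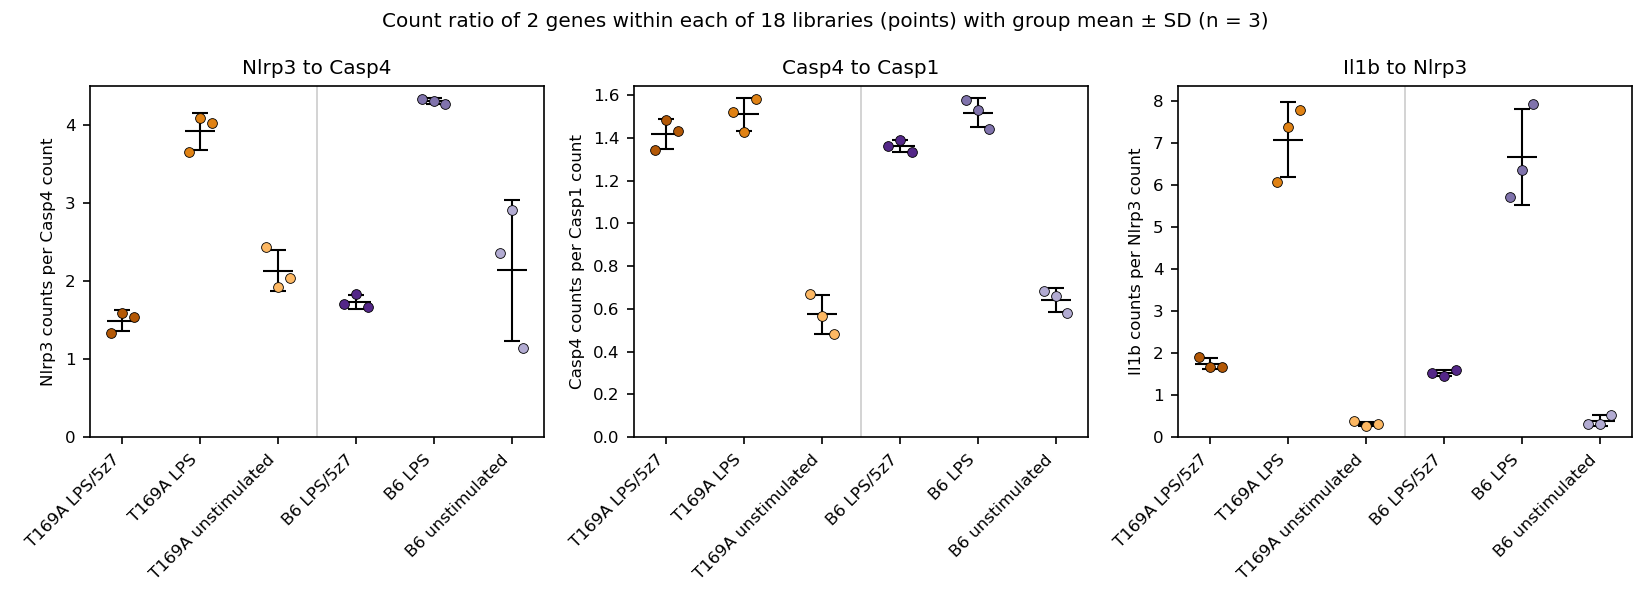
Count ratios within each library on linear axes from 0: Nlrp3 to Casp4, Casp4 to Casp1 and Il1b to Nlrp3; points are libraries, long bars the mean and whiskers the SD of 3 libraries. The Nlrp3 to Casp4 ratio is 3.65 or more in LPS libraries and 1.84 or less in LPS/5z7 libraries, and the Il1b to Nlrp3 ratio is 5.72 or more with LPS and 1.9 or less with LPS/5z7.

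Levels of different genes were compared per kilobase of exon. With all exons of a gene joined, Ninj1 was the most abundant member in 5 of 6 groups, with 311 ± 28.1 CPM per kb in T169A LPS/5z7, 282 ± 40.1 in T169A LPS and 166 ± 19.3 in T169A unstimulated libraries (SD, n = 3 each). In B6 it had 288 ± 19.9 CPM per kb with LPS/5z7, 268 ± 43.2 with LPS and 188 ± 26.5 without stimulus. Nlrp3 was level with it under LPS, at 267 ± 11.9 CPM per kb in T169A and 296 ± 15.8 in B6, within the SD of Ninj1, but stood far lower without stimulus, at 20.3 ± 6.04 in T169A and 26.0 ± 11.5 in B6. Casp1 followed with 123 ± 13.7 CPM per kb in T169A LPS libraries and 123 ± 0.309 in B6 LPS libraries, ahead of Casp4 with 74.8 ± 7.8 and Gsdmd with 73.4 ± 2.32 in T169A LPS libraries, which did not differ beyond their SD. Aim2, with 18 ± 3.66, and Pycard, with 16.1 ± 2.36 CPM per kb in T169A LPS libraries, also did not differ beyond their SD. Nlrc4 was lowest in 6 of 6 groups, between 4.86 and 5.32 CPM per kb. The place of Casp4 depends on the length used: per kb of its longest protein coding transcript, of 1.44 kb in place of 3.71 kb, it had 193 ± 20.2 CPM per kb in T169A LPS libraries and stood above Casp1. By that length Ninj1 was highest in 6 of 6 groups.

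Between genotypes no member was called in any condition, by edgeR or by DESeq2. Over all genes tested, 0.214% were called in unstimulated cells, 0.222% with LPS and 0.161% with LPS/5z7, so calls were rare everywhere. At an unadjusted p under 0.05, edgeR gave 1 member in unstimulated cells, 0 with LPS and 0 with LPS/5z7, beside 694 of all 13068 genes in unstimulated cells, 729 with LPS and 766 with LPS/5z7. That member was Casp4, with 45.5, 36.0 and 32.7 CPM in T169A unstimulated libraries, against 45.7, 51.7 and 50.5 CPM in B6 unstimulated libraries, with the highest T169A library just under the lowest B6 one. Its log2 fold change was −0.37 ± 0.12 (adjusted p = 0.5, edgeR), and the adjusted p ran from 0.0808 to 1 with each library left out. With LPS the difference of Casp4 was −0.01 ± 0.11 (95% interval −0.25 to 0.23), and with LPS/5z7 it was 0.02 ± 0.11 (−0.22 to 0.26). The difference of Nlrp3 was −0.36 ± 0.24 without stimulus (−0.86 to 0.14), −0.15 ± 0.23 with LPS (−0.64 to 0.34) and −0.21 ± 0.23 with LPS/5z7 (−0.70 to 0.29). Its 3 T169A LPS/5z7 libraries, at 404 to 425 CPM, lay under the 3 B6 ones, at 458 to 494 CPM, with an adjusted p of 0.79 (edgeR). The share of all genes with groups apart in this way was not computed for any comparison, so such gaps are not read as a genotype effect. In unstimulated cells the differences of the 8 members ran from −0.37 to −0.06 with a median of −0.19, beside a median of 0 over all genes tested. Single libraries moved these values: Nlrp3 was −0.01 without B6 unstimulated library 4 and −0.65 without library 7, Nlrc4 was 0.04 without library 4, and Pycard was 0.18 and Gsdmd −0.03 without library 7. With LPS the differences of the 8 members ran from −0.19 to 0.14, and with LPS/5z7 from −0.28 to 0.19. In unstimulated cells the 95% intervals reached down to −0.86 for Nlrp3 and −0.62 for Casp4, so differences as large as these are not excluded with 3 libraries a group.

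**Figure D4:**
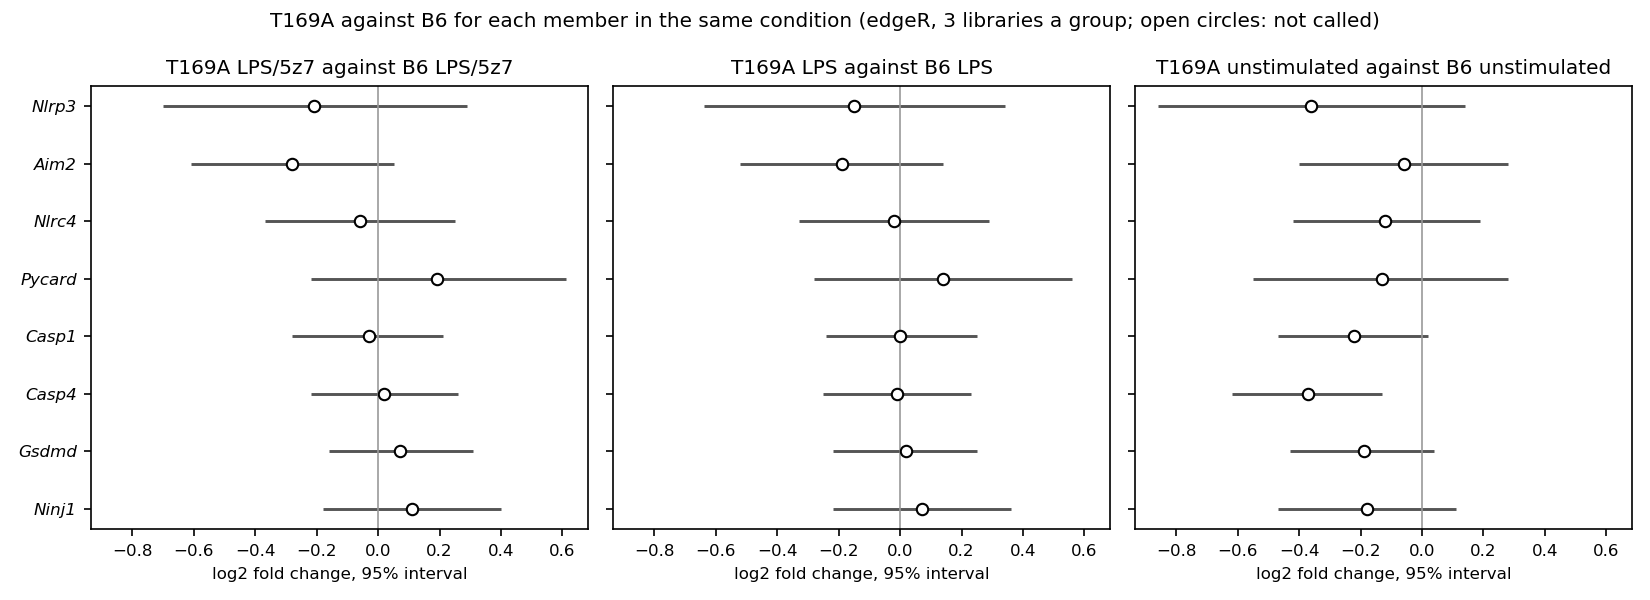
Log2 fold change of T169A against B6 for each gene with its 95% interval, in LPS/5z7, LPS and unstimulated libraries (edgeR, 3 libraries a group). All points are open, since no gene was called; the interval of Casp4 in unstimulated cells, −0.62 to −0.13, is the only one of the 24 that leaves out 0.

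The treatment effects were also compared between the genotypes. The T169A minus B6 difference of the LPS effect, of the effect of adding 5z7 to LPS and of the effect of LPS/5z7 against unstimulated cells was called for 0 members by edgeR and 0 by DESeq2. Over all genes tested, edgeR called 0% in each of the 3. At an unadjusted p under 0.05 there was 1 member for the LPS effect, 0 for the effect of 5z7 and 1 for LPS/5z7 against unstimulated cells, in each case Casp4. The T169A minus B6 value of Casp4 was 0.37 ± 0.16 for the LPS effect (adjusted p = 0.916, edgeR) and 0.39 ± 0.16 for the effect of LPS/5z7 against unstimulated cells (adjusted p = 0.83, edgeR). Over all 13068 genes tested, 421 had such a p for the LPS effect, 151 for the effect of 5z7 and 461 for LPS/5z7 against unstimulated cells. Both differences rest on the same unstimulated libraries as the genotype difference of Casp4 above. The T169A minus B6 value of the effect of 5z7 was −0.06 ± 0.33 for Nlrp3 (95% interval −0.75 to 0.64) and, for Casp4, 0.03 ± 0.16 (−0.31 to 0.37).

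The members fell into few patterns over the 18 libraries, described here by Pearson r of log2 CPM with no test, since the points share treatments and sequencing depth. Casp1 and Casp4 had r = 0.988, Casp1 and Gsdmd 0.968, Casp4 and Gsdmd 0.967 and Aim2 and Casp1 0.952. Nlrp3 reached 0.919 with Casp4 and 0.87 with Casp1, and Nlrc4 lay between −0.598 with Pycard and 0.226 with Nlrp3. Among 7801 genes with a mean of at least 10 CPM, the 2 genes most like Nlrp3 were Ell2 (r = 0.998) and Pde4b (0.997). Those most like Casp4 were Gbp2 (0.998) and Gbp3 (0.997), and those most like Aim2 were Gbp9 (0.985) and Tlr3 (0.983). Casp1 was most like Rbm43 (0.994) and Nt5c3 (0.992), and Gsdmd most like Psme2 (0.995) and H2-T23 (0.994). Ninj1 was most like Cdc37 (0.975) and Eva1b (0.973), and Pycard most like 1110038F14Rik (0.977) and Slc25a10 (0.94). Nlrc4 had the least close neighbour of the 8 members, Csf2rb (0.883).

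Around the members, 57 further genes of the pathway were listed by role, of which 49 passed the filter on low counts. With LPS, 24 were called higher and 13 lower in T169A, and 25 higher and 12 lower in B6. Over all genes tested, the shares were 30.3% higher and 31.5% lower in T169A, and 29.6% higher and 33.5% lower in B6. The same shares over all genes apply to the LPS counts by role below. The median log2 fold change of the 49 genes was 0.38 in T169A and 0.42 in B6, beside −0.03 in T169A and −0.07 in B6 over all genes tested. Scaled by library size alone, 19 were called higher and 23 lower in T169A and 18 higher and 23 lower in B6, and the medians were −0.20 in T169A and −0.18 in B6, so the direction of the list's median depended on the scaling. Adding 5z7 called 1 higher and 7 lower in T169A and 2 higher and 7 lower in B6. Over all genes tested, the shares were 6.5% higher and 6.53% lower in T169A, and 7.03% higher and 6.79% lower in B6. The medians of the 49 genes were −0.06 in T169A and −0.05 in B6, beside 0.02 over all genes in each genotype. By library size alone the counts of the list were 6 higher and 6 lower in T169A and 8 higher and 5 lower in B6. Against unstimulated cells, LPS/5z7 called 24 higher and 14 lower in T169A and 24 higher and 13 lower in B6, against 19 higher and 22 lower in T169A and 18 higher and 21 lower in B6 with library size alone. With TMM the shares over all genes were 28.1% higher and 27.5% lower in T169A, and 27.6% higher and 27.9% lower in B6. Between genotypes 0 of the 49 were called in any condition by edgeR. At an unadjusted p under 0.05 edgeR gave 4 in unstimulated cells, 1 with LPS and 1 with LPS/5z7. Over all 13068 genes tested, 694 had such a p in unstimulated cells, 729 with LPS and 766 with LPS/5z7. DESeq2 called 0 of the list in unstimulated cells, 1 lower with LPS (Txnip, −0.41, adjusted p = 0.0223) and 0 with LPS/5z7.

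Of the 4 cytokine genes of the list, Il1b, Il1a and Il18 rose with LPS in each genotype, and Il1b and Il1a fell when 5z7 was added. Il33, an alarmin cytokine, was called in the same directions, but it had 0 CPM in all unstimulated libraries and passed the filter on low counts through the libraries where it was high, at 2.63 ± 0.756 CPM in T169A LPS and 2.9 ± 0.815 CPM in B6 LPS libraries (SD, n = 3 each). Il1b, whose product is cut by caspase-1, had 806, 691 and 674 CPM in T169A LPS/5z7 libraries, 6900, 7960 and 8080 CPM in T169A LPS libraries and 42.0, 19.2 and 20.3 CPM in T169A unstimulated libraries. The B6 values were 737, 722 and 727 CPM with LPS/5z7, 7190, 7720 and 8980 CPM with LPS and 34.4, 46.9 and 31.1 CPM without stimulus. The 3 treatments were far apart in each genotype. The log2 fold change of LPS/5z7 against LPS was −3.40 ± 0.24 in T169A (adjusted p = 5.37e-08, edgeR) and −3.45 ± 0.24 in B6 (adjusted p = 6.42e-08, edgeR), beside −1.39 and −1.33 for Nlrp3. The median number of Il1b counts per Nlrp3 count was 1.67 with LPS/5z7, 7.38 with LPS and 0.303 without stimulus in T169A, and 1.53 with LPS/5z7, 6.35 with LPS and 0.318 without stimulus in B6. Il1a, an alarmin cytokine released from dying cells, changed by −3.84 ± 0.24 in T169A and −3.86 ± 0.24 in B6 when 5z7 was added to LPS. Il18, whose product is also cut by caspase-1, was called with LPS and not with 5z7. It averaged 42.5 ± 3.35 CPM in T169A LPS/5z7, 44.3 ± 0.931 CPM in T169A LPS and 12.2 ± 0.83 CPM in T169A unstimulated libraries (SD, n = 3 each). In B6 it averaged 39.7 ± 3.12 CPM with LPS/5z7, 43.4 ± 5.53 CPM with LPS and 13.4 ± 2.59 CPM without stimulus. Its LPS effect was 1.86 ± 0.12 in T169A and 1.70 ± 0.12 in B6, and its difference with 5z7 was −0.06 ± 0.12 in T169A (adjusted p = 0.843, edgeR) and −0.12 ± 0.12 in B6 (adjusted p = 0.59, edgeR).

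Of 9 genes listed for the access of LPS to caspase-11, 8 rose with LPS in each genotype, and Hmgb1 fell. The list holds guanylate-binding proteins, which open bacterial vacuoles and coat bacteria, and also Irgm1 and Irgm2. It was not split into genes that help and genes that restrain this access. Gbp5 rose by 7.21 ± 0.27 in T169A (adjusted p = 4.54e-13, edgeR) and by 7.00 ± 0.27 in B6 (adjusted p = 5.7e-13, edgeR), to 1780 ± 346 CPM with LPS against 12 ± 4.64 CPM without stimulus in T169A. Adding 5z7 called 0 of the 9 higher and 1 lower in each genotype by edgeR. The gene called lower was Cd14, named, like Hmgb1, after its values were seen. At an unadjusted p under 0.05 edgeR gave 1 of the 9 in each genotype, beside 3226 of all 13068 genes in T169A and 3364 in B6. When 5z7 was added the difference of Gbp5 was 0.22 ± 0.20 in T169A and 0.19 ± 0.20 in B6, and that of Gbp3 was −0.06 ± 0.17 in T169A and −0.08 ± 0.17 in B6.

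Of 12 further sensors 10 were tested. With LPS 3 rose in each genotype, while 4 fell in T169A and 5 in B6. Library size alone gave 3 higher and 7 lower in each genotype. The tested sensors include Naip1, which was low. It averaged 0.404 CPM with LPS and 0.66 CPM without stimulus in T169A, and 0.328 CPM with LPS and 0.769 CPM without stimulus in B6. It may have passed the filter on low counts through the libraries where it was high. Ifi205, a relative of Aim2 in the DNA-binding interferon-inducible family, stood at 290 ± 96.8 CPM in T169A LPS/5z7, 495 ± 121 CPM in T169A LPS and 3.22 ± 1.32 CPM in T169A unstimulated libraries (SD, n = 3 each). It belongs to a family of near-identical genes, so its counts are uncertain.

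Of 9 genes that act on NLRP3 activation 8 were tested, and with LPS 0 were called higher by edgeR with TMM in either genotype, while 6 fell in T169A and 4 in B6. DESeq2 also called 0 higher, and edgeR with RLE size factors called 1 higher in B6 (Nek7, 0.33, adjusted p = 0.0495). At an unadjusted p under 0.05 edgeR gave 6 genes in T169A and 5 in B6 in either direction. Over all 13068 genes tested, 8506 had such a p in T169A and 8655 in B6. All 8 tested were called lower in each genotype with library size alone. Txnip, whose product can bind NLRP3, averaged 157 ± 8.95 CPM in T169A LPS/5z7, 61.9 ± 6 CPM in T169A LPS and 344 ± 31.9 CPM in T169A unstimulated libraries (SD, n = 3 each). In B6 it averaged 181 ± 2.24 CPM with LPS/5z7, 81.2 ± 6.95 CPM with LPS and 318 ± 27.4 CPM without stimulus. The log2 fold change of Txnip was −2.47 ± 0.10 for LPS and 1.34 ± 0.10 for 5z7 on top of LPS in T169A, and −1.97 ± 0.10 for LPS and 1.15 ± 0.10 for 5z7 on top of LPS in B6, each called. P2rx7, the ATP-gated channel that triggers potassium efflux, fell with LPS by 1.52 ± 0.10 in T169A (adjusted p = 6.72e-10, edgeR) and by 1.41 ± 0.10 in B6 (adjusted p = 1.75e-09, edgeR). With 5z7 on top of LPS P2rx7 rose by 0.32 ± 0.10 in B6 (adjusted p = 0.0421, edgeR), a call that DESeq2 did not make, while in T169A the difference was 0.25 ± 0.10 (adjusted p = 0.124, edgeR); with library size alone it was called in both, at 0.41 in T169A (adjusted p = 0.00834, edgeR) and 0.48 in B6 (adjusted p = 0.00257, edgeR).

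Of 6 inhibitors, 2 rose and 1 fell with LPS in T169A, and 3 rose and 1 fell in B6. Library size alone gave 1 higher and 2 lower in each genotype. Il1rn, which encodes the antagonist of the IL-1 receptor, averaged 348 ± 88.9 CPM in T169A LPS/5z7, 1160 ± 187 CPM in T169A LPS and 53.5 ± 7.05 CPM in T169A unstimulated libraries (SD, n = 3 each). Its log2 fold change with 5z7 on top of LPS was −1.73 ± 0.15 in T169A (adjusted p = 7.16e-07, edgeR) and −1.71 ± 0.15 in B6 (adjusted p = 8.14e-07, edgeR). Of 9 other caspase, gasdermin and protease genes 5 were tested, and with LPS 2 rose and 1 fell in each genotype, against 2 higher and 3 lower in each with library size alone. The tested genes include Casp12, at 1.96 CPM with LPS and 0.226 CPM without stimulus in T169A, and 1.51 and 0.277 CPM in B6. It may have passed the filter on low counts through the libraries where it was high. The gene that fell with TMM was Gsdme, a gasdermin cut by caspase-3, by 1.54 ± 0.18 in T169A (adjusted p = 7.38e-07, edgeR) and by 1.77 ± 0.18 in B6 (adjusted p = 1.32e-07, edgeR), at levels of at most 7.48 CPM. Of 8 genes of membrane repair, which remove gasdermin pores, 7 were tested, and 5 rose with LPS in each genotype. Their median log2 fold change was 0.56 in T169A and 0.45 in B6. With library size alone 1 was called higher and 2 lower in T169A and 0 higher and 2 lower in B6, with medians of −0.02 in T169A and −0.14 in B6, so the direction of this group depended on the scaling. With 5z7 on top of LPS edgeR called 0 of them, with 1 in each genotype at an unadjusted p under 0.05, and DESeq2 called 0 in T169A and 1 in B6 (Chmp4b, −0.33, adjusted p = 0.0477). Over all 13068 genes tested, 3226 in T169A and 3364 in B6 had an unadjusted p under 0.05 (edgeR).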

How the data were processed

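Per the labels' protocols, directional TruSeq libraries were made from TRIzol-extracted RNA of macrophages. The deposited values are raw counts for each gene; the submitters' processing notes name Trim Galore, STAR, featureCounts and GRCm39; versions, the strand setting and the treatment of shared reads are not given in the sources used here, so overlapping and near-identical genes are uncertain. Column names give running numbers where titles give letters, so columns were tied to groups. Symbols, exon lengths and chromosomes came from GENCODE M21 (GRCm38), matching 52029 of 56953 IDs (91.4%), which held 99.8% of counts; a floor of 3 counts was 0.205 CPM in the shallowest library.

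Counts were filtered with filterByExpr by group (13068 genes), scaled with TMM and fitted in edgeR 4.0.16 (R 4.3.3) with 6 group means over 18 libraries and robust quasi-likelihood; 12 comparisons were adjusted by Benjamini-Hochberg at 0.05. The SE is the log2 fold change over the square root of F. Alternatives were DESeq2 1.42.0, RLE factors, library size alone, no filter, 1 CPM in 3 libraries, the compared groups alone, a replicate block of consecutive running numbers, each library left out, adjusted p under 0.01, and a log2 fold change of at least 1; the per kb level by longest coding transcript, and RLE, library size and DESeq2 counts for the other pathway genes, were added after seeing the data. The code was tested on simulated data. The members and lists were chosen with earlier results of these data known. Named beside the members are, of the other pathway genes, the 3 called with the smallest p per direction and treatment comparison, Il1a, Il1b and Il18, and the 2 genes most like each member, of which 1 is not reported here. Figures used Python 3.11.15 and matplotlib 3.10.9.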

Additional observations from a re-analysis of the deposited data

How the results depend on the processing

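The count of members called stayed within 1.5 times of the reported one except as follows. With a log2 fold change of at least 1, 4 members in place of 7 were called for B6 LPS/5z7 against unstimulated. For LPS/5z7 against LPS, library size alone called 2 in T169A and 3 in B6, the fits of the compared groups 2 in each, and the replicate block 2 in each, all in place of 1. With each library left out these 2 counts ran from 1 to 2, with 2 only without B6 unstimulated library 7. Library size alone reversed Nlrc4 in T169A with LPS (−0.50), Pycard in B6 with LPS (−0.51) and Ninj1 in B6 with LPS (−0.08). Of single member values under all alternatives, 2349 kept direction and side of the threshold, 16 became called, 8 lost their call and 3 reversed; an uncalled value that changed sign without a call counts among the 2349.

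Whether consecutive running numbers mark paired libraries was not settled. Of 18 pairs, 11 correlated over 0.1 (−0.0463 to 0.456), and 12 of 18 libraries lay closest to their own set of consecutive numbers. The values expected without pairing were not computed. The reported fit held no replicate block, so any such pairing is left out of its p-values. With that block Pycard was called for LPS in T169A (adjusted p = 0.00355, edgeR) and for LPS/5z7 against LPS in T169A (adjusted p = 0.000883) and in B6 (adjusted p = 0.00149).

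Counts over all genes moved more. For LPS/5z7 against LPS they were 2707 in T169A and 2855 in B6 with library size alone, beside 1703 and 1806. With each library left out they ran from 1009 to 2478 in T169A, lowest without libraries 14 (1102), 15 (1078) and 18 (1009), and from 1159 to 2627 in B6, lowest without libraries 5 (1159) and 6 (1169). T169A against B6 gave 28 genes in unstimulated cells, 7 in the fit of these groups alone, 64 with DESeq2 and 22 to 46 with a library left out (46 without library 7, 45 without library 10). With LPS it gave 29, 13 in that fit, 51 with DESeq2 and 16 to 42 with a library left out. With LPS/5z7 it gave 21, 223 in that fit, 45 with DESeq2, 39 with no filter and 15 to 49 with a library left out (49 without library 7). DESeq2 called 2 genes for the genotype difference of LPS/5z7 against unstimulated, beside 0. The cause of these moves was not tested. With 3 libraries a group, differences between genotypes of a size inside the printed intervals are not excluded.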
